A study of Mus musculus with 59 samples.

Results

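The genes described here encode the machinery that holds synaptic vesicles, fuses them with the presynaptic membrane and retrieves them afterwards. The 40 genes were chosen by name and matched to the deposited table through their Ensembl identifiers, with a value of 10 or more required in at least 4 libraries. All 40 were found, and each reached 10 in all 59 libraries, so the filter removed none of them. They are 40 of 17891 genes tested, and they fall into 6 roles: 7 genes of the vesicle membrane, 9 calcium sensors and related C2-domain proteins, 9 SNARE proteins and their regulators, 11 genes of the active zone and of vesicle priming, 2 vesicular glutamate transporters and 2 genes of membrane recovery.

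The study measured polyadenylated RNA of prefrontal cortex from C57BL/6J mice at postnatal day 25. The animals were Naa15 heterozygous (HT) or wild type (WT) and had received fluoxetine, lithium or vehicle from postnatal day 3 to 24 through the milk of their mothers. Naa15 encodes the auxiliary subunit of the NatA N-terminal acetyltransferase, fluoxetine is a serotonin reuptake inhibitor, and lithium is a mood stabiliser. Genotype, treatment and sex define 12 groups, each of 5 libraries apart from HT males on vehicle, of which 4 were sequenced. The sources used here do not describe the Naa15 allele, the drug doses or the litters, so animals of 1 treatment may share a mother.

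A synaptic vesicle is filled with transmitter by a transporter, docked at the active zone by scaffold and Rab3-binding proteins, and primed by Munc13 and Munc18 proteins. Fusion is driven by a SNARE complex of a vesicle protein (VAMP), syntaxin and SNAP-25, is triggered when calcium binds a synaptotagmin, and is held in check or promoted by complexins. NSF and its SNAP adaptors then take the complex apart, and dynamin and amphiphysin help to pinch the membrane back off. In cortex most of these proteins come from glutamatergic and GABAergic neurons, and several families (synapsins, SV2 proteins, RIMs, Munc13s) have members with different cell-type patterns.

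The libraries held 24.99 M to 32.87 M reads. Along the largest axis of variation over all tested genes, which held 14.4% of the variance, the 20 lithium libraries and the 5 libraries of HT fluoxetine females stood apart from the other 34, with scores of -31.4 to -15.0 against -2.23 to 27.4. The same 25 libraries had a higher mitochondrial share of the deposited sum (6.76% to 10.3%, against 4.96% to 7.83%). They also had lower slopes of level on transcript GC content, with level taken relative to each gene's mean over the 59 libraries. These slopes were -0.255 to -0.0569 in the 25 libraries, against -0.0627 to 0.191 in the other 34, so negative values mark lower levels of GC-rich transcripts than in the average library. Every comparison below that involves lithium or HT fluoxetine females rests on these libraries, and the part of the mitochondrial share in those results was not tested. No marker of the neuronal, glial, endothelial or neighbouring-region lists was at 0 in any group, and the 6 excitatory cortical markers summed to 136571 to 200084 normalised counts in WT vehicle libraries, against 2845 to 13447 for the 6 striatal markers. Naa15 itself was 1634 ± 139 (SD, n = 10) in WT vehicle and 1596 ± 65.3 (SD, n = 9) in HT vehicle libraries. It did not separate the libraries labelled HT from those labelled WT (log2 difference -0.03, limma adjusted p = 0.895), so it gave no check of the genotype labels, which HT and WT stand for throughout.

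The promoters of 4 members are printed because they belong to the 3 members with the smallest p under lithium in HT mice (Syn1, Dnm1 and Ppfia3, which fell) and to Napb, the member with a promoter entry that rose in both genotypes. The sequences are the 250 bases before the annotated start, from RefSeq on GRCm38.p6, written 5′ to 3′ on the strand of the gene, which is the minus strand for all 4. They lie at chrX:20920919-20921168 (Syn1), chr2:32353330-32353579 (Dnm1), chr7:45367020-45367269 (Ppfia3) and chr2:148732421-148732670 (Napb). Capitals mark matches, on either strand, to a cAMP response element (TGACGTCA), an EGR site (GCGNGGGCG) or a GC box (GGGGCGGGG).
Syn1: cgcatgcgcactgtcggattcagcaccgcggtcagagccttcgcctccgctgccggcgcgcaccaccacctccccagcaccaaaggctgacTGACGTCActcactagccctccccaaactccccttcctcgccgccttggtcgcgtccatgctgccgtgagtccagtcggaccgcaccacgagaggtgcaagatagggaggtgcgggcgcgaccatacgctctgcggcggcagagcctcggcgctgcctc
Dnm1: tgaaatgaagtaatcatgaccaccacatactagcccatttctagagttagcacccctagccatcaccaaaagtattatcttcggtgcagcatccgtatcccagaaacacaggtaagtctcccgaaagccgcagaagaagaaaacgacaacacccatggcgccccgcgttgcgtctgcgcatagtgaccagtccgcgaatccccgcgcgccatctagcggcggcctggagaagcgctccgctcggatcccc
Ppfia3: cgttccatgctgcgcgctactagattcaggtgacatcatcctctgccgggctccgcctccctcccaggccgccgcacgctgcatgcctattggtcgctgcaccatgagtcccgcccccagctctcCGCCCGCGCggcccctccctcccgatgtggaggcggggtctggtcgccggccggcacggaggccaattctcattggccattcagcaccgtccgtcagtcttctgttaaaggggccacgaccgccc
Napb: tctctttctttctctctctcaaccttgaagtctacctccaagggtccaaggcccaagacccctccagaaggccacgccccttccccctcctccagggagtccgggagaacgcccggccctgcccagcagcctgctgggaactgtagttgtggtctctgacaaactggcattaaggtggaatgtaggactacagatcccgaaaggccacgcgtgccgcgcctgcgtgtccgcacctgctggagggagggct

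The table held 31 of the 40 members. The cAMP response element was found in 1 of these 31 members (Syn1) and in 1.55% of all 32851 windows of the same length. The EGR letters were found in 5 (Nsf, Ppfia3, Stxbp5, Syn2 and Unc13a; 4.70% of all windows), and the GC box in 9 (Rab3a, Rims1, Rims3, Slc17a7, Stxbp5, Sv2a, Syp, Unc13a and Unc13b; 10.4%). The EGR letters and the GC box are both G-rich and can overlap. The members' windows had a median GC content of 61.2% and a median of 15 CG dinucleotides, against 52.4% and 6 over all windows. Among the 31 were 21 of the members that fell in WT lithium mice and 1 that rose, so the windows of risers and fallers could not be compared.

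In WT vehicle mice, levels per kilobase of the longest annotated transcript spanned 197-fold. Slc17a7, the vesicular glutamate transporter of most cortical excitatory neurons, was highest at 17603 ± 1546 normalised counts per kilobase (SD, n = 10). Syp (synaptophysin, an abundant protein of the vesicle membrane) followed at 15985 ± 866, Vamp2 (the main vesicle SNARE of the forebrain) at 15163 ± 423, Snap25 (the SNARE that supplies a pair of helices to the complex) at 12356 ± 912 and Syt1 (the calcium sensor of fast synchronous release) at 10898 ± 789. The lowest were Syn3 (the least abundant synapsin) at 89.4 ± 9.0 and Syt2 (the fast sensor used mainly in hindbrain and some interneurons) at 116 ± 25.7. Within families the levels per kilobase differed widely: Syn1 was 6709 and Syn2 4489 against 89.4 for Syn3, Unc13a was 1631 against 169 for Unc13b, and Slc17a7 was 17603 against 144 for Slc17a6, the transporter typical of thalamic and brainstem neurons. Of the 39 neighbouring pairs in this order, 34 had overlapping ranges over the 10 libraries and so were not separated beyond their spread. The gaps without overlap were Vamp2 above Snap25, Sv2a above Syt5, Amph above Rims1, Bsn above Erc2 and Vamp1 above Unc13b.

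**Figure D1:**
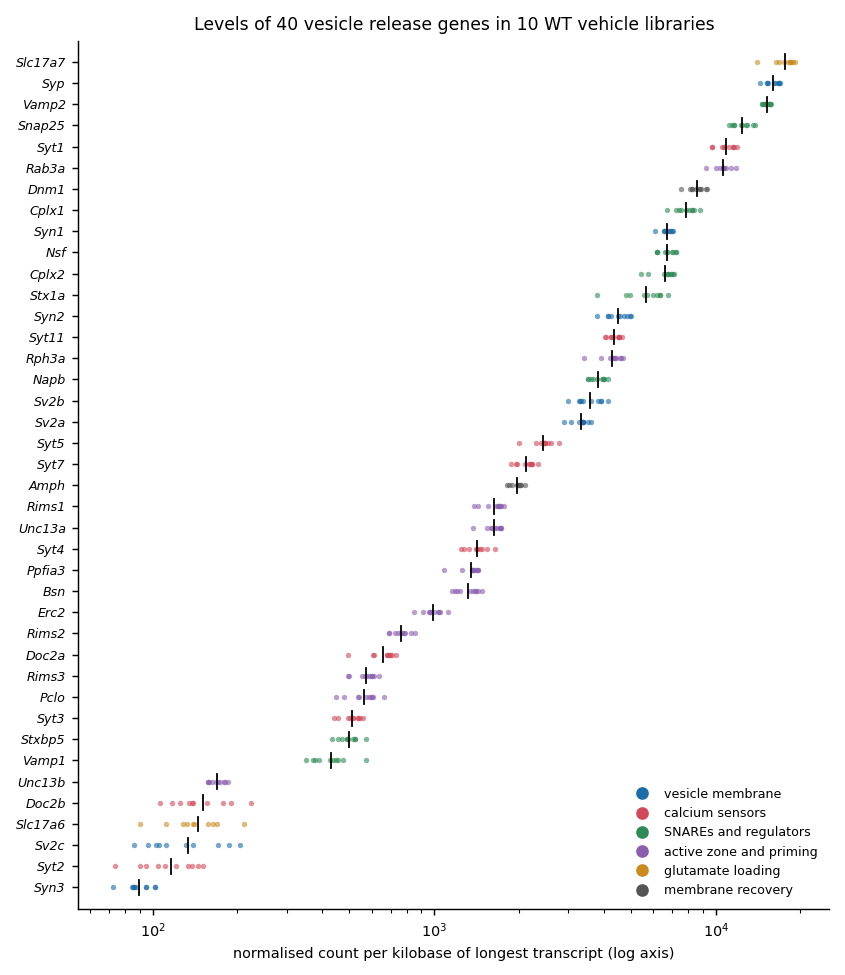
Normalised count per kilobase of the longest transcript (log axis) for the 40 members in 10 WT vehicle libraries; points are libraries, black bars means, colours roles. Slc17a7, Syp and Vamp2 lie at 14043 or more in every library, and the 6 lowest genes lie at 224 or less.

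Together the members took a median of 2.16% of the deposited sum in WT vehicle libraries and 2.18% in HT vehicle libraries. The median was 2.0% in WT lithium, 1.99% in HT lithium and 2.0% in HT fluoxetine female libraries. As a share of the sum without mitochondrial genes, the medians were 2.30% and 2.31% in WT and HT vehicle, 2.19% and 2.16% in WT and HT lithium and 2.17% in HT fluoxetine female libraries, so the difference was smaller on that scale. Levels were steady between libraries of a group: the median within-group SD of the members was 0.10 on the log2 scale, against 0.15 for all tested genes, whose mean level was also lower (median 420 normalised counts, against 12325 for the members). Vamp2 was the steadiest member (SD 0.05 on the log2 scale) and Sv2c, an SV2 protein of few cortical cells, the most variable (SD 0.39).

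Genotype alone was compared first, in vehicle mice. None of the 40 members was called between HT and WT vehicle mice by limma at an adjusted p under 0.05, where 0.106% of all tested genes were called. The median log2 difference of the members was -0.0039, and 2 members had an unadjusted p under 0.05. edgeR and DESeq2 on the recovered reads also called 0 members. The smallest p belonged to Vamp1, the vesicle SNARE of fast-firing neurons, which ranged from 1698 to 2429 normalised counts in HT vehicle libraries. Its log2 difference was -0.19 (95% interval -0.35 to -0.02, adjusted p = 0.549) and 8 of 9 HT libraries lay below the WT mean. Slc17a6 differed by -0.26 (95% interval -0.49 to -0.03, adjusted p = 0.565) and Snap25 by -0.10 (95% interval -0.20 to 0.00, adjusted p = 0.642). The same genotype comparison within lithium-treated mice also called 0 members (limma; 0.386% of all genes; 5 members at an unadjusted p under 0.05; 0 by edgeR and by DESeq2). The median there was -0.05 and 35 of 40 members (87.5%) were lower in HT, as were 51.8% of all tested genes, with the smallest p for Snap25 (-0.16, 95% interval -0.25 to -0.06, adjusted p = 0.104), Syt4 (-0.16, adjusted p = 0.168) and Cplx2 (-0.08, adjusted p = 0.306).

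Fluoxetine was compared with vehicle in WT mice of both sexes and in HT males. In WT mice 0 of 40 members were called by limma (1.02% of all genes; 2 members at an unadjusted p under 0.05; 0 by edgeR and by DESeq2), and the median log2 change was 0.01. Syn1, a phosphoprotein that tethers vesicles in the reserve pool, had the smallest p. It ranged from 21471 to 24941 normalised counts in WT fluoxetine and from 19825 to 22938 in WT vehicle libraries, and these ranges overlap. Its change was 0.07 (95% interval 0.01 to 0.13, adjusted p = 0.313, 8 of 10 libraries above the vehicle mean), and those of Syn2 and Syt7 were 0.09 (adjusted p = 0.405) and 0.07 (adjusted p = 0.478). In HT males 0 members were called (0.162% of all genes; 1 member at an unadjusted p under 0.05; 0 by edgeR and by DESeq2), and the member with the smallest p was Slc17a6 (0.36, 95% interval 0.02 to 0.70, adjusted p = 0.537). HT and WT males under fluoxetine differed in 0 members as well (1.60% of all genes; 4 members at an unadjusted p under 0.05; 0 by edgeR and by DESeq2). Rims1 had the smallest p in that comparison (-0.18, adjusted p = 0.107, lower in 5 of 5 HT libraries), and without WT fluoxetine male replicate 5 it was called at an adjusted p of 0.0484. Syt7 (-0.14, adjusted p = 0.143) and Stx1a (-0.25, adjusted p = 0.178) came next, and with the GC and length slope of each library as covariates Stx1a was called (-0.29, adjusted p = 0.0234). In that fit 3.06% of all genes were lower and 3.39% higher in HT. The fluoxetine effect in males did not differ between genotypes for any member (0 called, 0% of all genes; 1 member at an unadjusted p under 0.05; 0 by edgeR and by DESeq2), and the interval for Slc17a6, the member with the smallest p, was 0.06 to 0.99 (adjusted p = 0.853).

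Lithium was accompanied by lower levels of most members in both genotypes. In WT mice 27 of 40 members fell and 3 rose (limma), where 26.3% of all tested genes fell and 26.6% rose (52.9% called in all). The median log2 change of the members was -0.20, against 0.01 over all tested genes. In HT mice 27 fell and 4 rose, where 24.9% of all genes fell and 25.7% rose (50.6% called), with a median of -0.21 against 0.03. The WT and HT comparisons share no library. The members that fell in both were 25, which is 25 of 27 in each genotype, and Napb, Snap25 and Syt4 rose in both. The share of all tested genes called alike in both genotypes was not counted, so this overlap is not shown to be particular to the members. In bulk tissue, fewer cells of a type and less RNA per cell cannot be told apart. Members named below beyond the 6 with the smallest p in a comparison were chosen after their values were seen.

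Among the vesicle membrane genes, 4 of 7 fell in each genotype and 0 rose. Syn1 ranged from 19825 (median 21977) to 22938 normalised counts in WT vehicle libraries and from 16547.5 (median 17387) to 18195.5 in WT lithium libraries. In HT mice the range was 20880 (median 21587) to 23830 under vehicle and 15379 (median 16771) to 17945 under lithium. Every lithium library lay below every vehicle library of the same genotype. The log2 change was -0.34 (SE 0.03, adjusted p = 1.76e-14) in WT and -0.40 (SE 0.03, adjusted p = 4.23e-16) in HT, so that Syn1 fell by 21.0% in WT and fell by 24.1% in HT. Syn3 fell by 0.59 (adjusted p = 4.50e-06) and 0.34 (adjusted p = 0.00849), and without WT lithium male replicate 2, which was at 122 normalised counts with the other 9 libraries at 278 to 347, the WT change was -0.46 (adjusted p = 2.67e-06). Syp fell by 0.14 (adjusted p = 0.000917) and 0.21 (adjusted p = 1.82e-06), and Sv2a, the widely expressed SV2 glycoprotein, by 0.22 (adjusted p = 4.59e-05) and 0.28 (adjusted p = 1.01e-06). Syn2 was not called in either genotype: it ranged from 14618 to 19223 normalised counts in WT vehicle and from 15924 to 19566 in WT lithium libraries, with a change of 0.02 (95% interval -0.07 to 0.10) in WT and -0.08 (-0.17 to 0.01) in HT, where it was called without HT vehicle male replicate 3 (-0.12, adjusted p = 0.0138). Sv2b, a forebrain SV2 protein, had log2 differences of 0.12 (adjusted p = 0.0933; 0.0372 without WT vehicle female replicate 3) and 0.05 (adjusted p = 0.551). For Sv2c the 95% intervals were wide (-0.53 to 0.14 and -0.35 to 0.34). After removal of the GC and length trend described below, Syn1, Syn3 and Syp fell in both genotypes, and Sv2a was called in neither.

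Of the 9 calcium sensors and related proteins, 6 fell and 1 rose in WT, and 8 fell and 1 rose in HT. Syt1 ranged from 46609 to 57379 normalised counts in WT vehicle and from 42578 to 52724 in WT lithium libraries, and the ranges overlap over most of their length. It fell by 0.12 (SE 0.05, adjusted p = 0.0275, 8 of 10 libraries below the vehicle mean) in WT and by 0.16 (adjusted p = 0.00368, 10 of 10 libraries) in HT. The WT call was lost without WT lithium female replicate 5, WT lithium male replicate 4, WT vehicle female replicate 3 or WT vehicle male replicate 3 (adjusted p 0.0567 to 0.0781). Syt3, a high-affinity sensor, fell by 0.23 (adjusted p = 2.63e-06) in WT and by 0.34 (adjusted p = 1.55e-09) in HT. In HT its 10 lithium libraries (946 to 1196 normalised counts) all lay below its 9 vehicle libraries (1282 to 1460). Syt7, the sensor of asynchronous release and facilitation, fell by 0.20 (adjusted p = 5.03e-06) and 0.22 (adjusted p = 1.26e-06). Doc2b, a sensor of spontaneous release, fell by 0.42 in both genotypes but with a wide spread (adjusted p = 0.0134 and 0.0184; 0.0979 in HT without HT vehicle male replicate 3). Syt4, a synaptotagmin that does not bind calcium in the usual way and is induced by activity, went the other way. It ranged from 4859 to 6411 normalised counts in WT vehicle and from 5799 to 8362 in WT lithium libraries, overlapping at the lower end, and rose by 0.29 (adjusted p = 1.47e-05) in WT and by 0.16 (adjusted p = 0.0221) in HT. The HT call for Syt4 was lost without HT vehicle female replicate 4 (adjusted p = 0.0598) and without HT vehicle male replicate 3 (log2 change 0.092, adjusted p = 0.154). After removal of the GC and length trend described below, Syt1 fell in both genotypes, and Syt4, Syt7 and Doc2b were called in neither. Syt7 then had the opposite sign in both genotypes, and Syt4 in HT.

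Among the SNAREs and their regulators, 5 of 9 fell and 2 rose in WT, and 4 fell and 2 rose in HT. Before any GC correction the 3 SNARE families did not move together. Snap25 rose by 0.24 (SE 0.05, adjusted p = 3.47e-05) in WT and by 0.18 (SE 0.05, adjusted p = 0.00209) in HT, Vamp2 fell by 0.17 (adjusted p = 1.92e-07) and 0.19 (adjusted p = 1.43e-08), and Stx1a, a plasma membrane syntaxin, fell by 0.22 (adjusted p = 0.00467) and 0.34 (adjusted p = 5.08e-05). Snap25 ranged from 54465 to 67160 normalised counts in WT vehicle and from 63429 to 80653 in WT lithium libraries, so the groups overlap only between 63429 and 67160. Vamp2 ranged from 31615 to 34273 in HT vehicle and from 27198 to 30622 in HT lithium libraries, with no overlap. After removal of the GC and length trend described below, Vamp2 fell in both genotypes, whereas Snap25 and Stx1a were called in neither. Snap25 then had the opposite sign in HT. Napb, the neuronal SNAP adaptor of NSF, rose by 0.18 (adjusted p = 6.85e-05) and 0.20 (adjusted p = 2.36e-05), with 10 of 10 lithium libraries above the vehicle mean in each genotype. Nsf, the ATPase that Napb brings to the complex, fell by 0.13 (adjusted p = 0.0125) and 0.17 (adjusted p = 0.00106). Cplx2, the complexin of most cortical excitatory neurons, fell by 0.23 (adjusted p = 2.37e-07) and 0.32 (adjusted p = 1.79e-10), and in HT its lithium libraries (23269 to 28053 normalised counts) all lay below its vehicle libraries (31049 to 34713). Cplx1, the other main complexin, was not called (-0.08, adjusted p = 0.204, and -0.13, adjusted p = 0.0586), although 7 of 59 leave-outs called it in HT (adjusted p 0.0213 to 0.0475). Stxbp5, or tomosyn, a syntaxin-binding inhibitor of priming, was not called either, with 95% intervals of -0.08 to 0.08 in both genotypes.

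Of the active zone and priming genes, 9 of 11 fell in WT and 8 of 11 in HT, with none rising. Rims1, a scaffold that links Rab3 to calcium channels and Munc13, ranged from 8961 (median 10864) to 11426 normalised counts in WT vehicle and from 6622 (median 7676) to 8956 in WT lithium libraries. In HT it ranged from 9564 (median 10356) to 11101 under vehicle and from 6762 (median 7387) to 8283 under lithium. The groups do not overlap in either genotype, and Rims1 fell by 0.45 (SE 0.04, adjusted p = 2.53e-13) and 0.47 (SE 0.04, adjusted p = 2.07e-13), or 26.7% and 27.8%. Ppfia3, a liprin that organises the active zone, fell by 0.36 (adjusted p = 1.06e-12) and 0.40 (adjusted p = 1.20e-13). Its 10 WT lithium libraries lay within 4898 to 5291 normalised counts, below all WT vehicle libraries (5326 to 7019). Bsn, or bassoon, one of the giant scaffold proteins, fell by 0.36 (adjusted p = 7.38e-08) and 0.39 (adjusted p = 2.27e-08), and Unc13a, the main Munc13 priming factor of excitatory synapses, by 0.26 (adjusted p = 1.52e-07) and 0.28 (adjusted p = 1.10e-07). For Ppfia3, Bsn and Unc13a the WT change after removal of the GC and length trend described below was 0.01, 0.10 and 0.07 and the HT change -0.03, 0.00 and 0.01, with none of these called. Rab3a and Rph3a (rabphilin), a vesicle GTPase and its effector, fell by 0.20 and 0.27 in WT (adjusted p = 1.88e-05 and 1.18e-06). After that removal Rab3a fell in both genotypes and Rph3a was called in neither. The log2 differences of Unc13b, the second Munc13, were 0.01 (95% interval -0.10 to 0.13) and 0.03 (-0.10 to 0.15), and those of Erc2, the ELKS protein of the active zone, were 0.10 (adjusted p = 0.107) and 0.03 (adjusted p = 0.658).

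**Figure D2:**
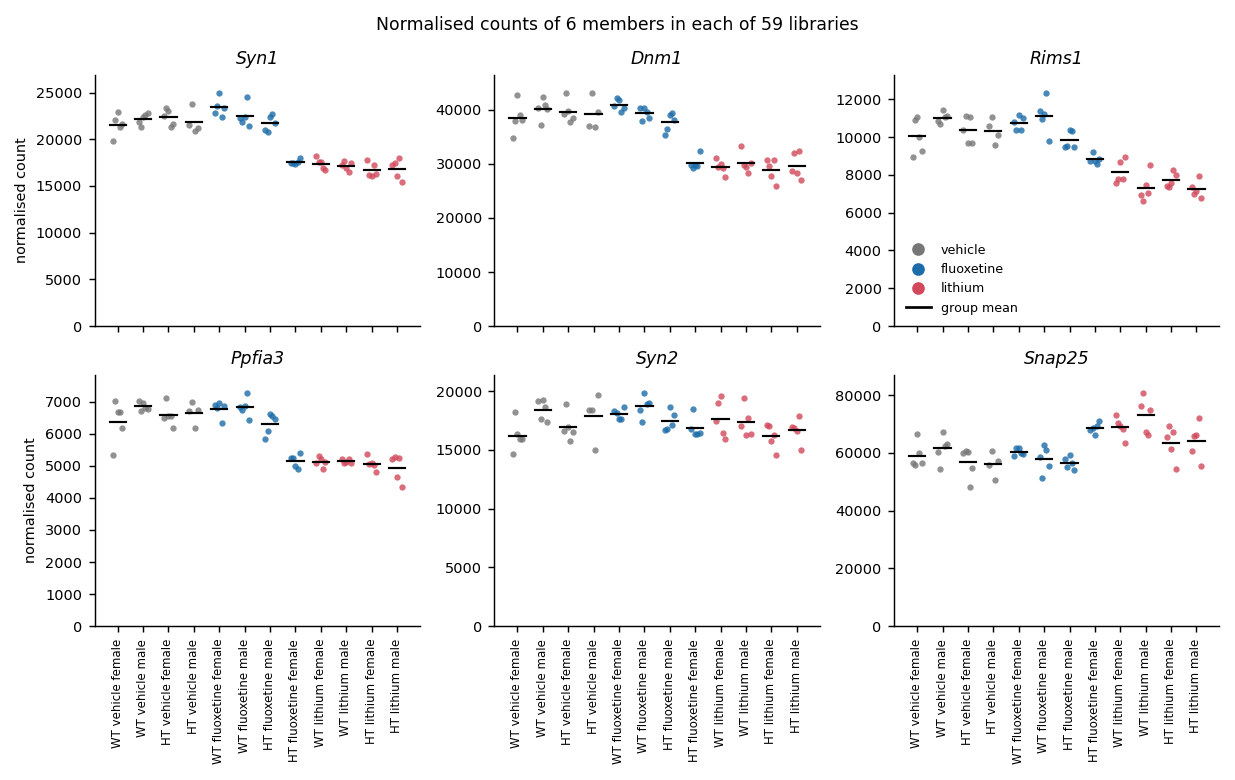
Normalised counts of Syn1, Dnm1, Rims1, Ppfia3, Syn2 and Snap25 in the 59 libraries by group; points are libraries, black bars group means, and each vertical axis starts at 0. For Syn1, Dnm1, Rims1 and Ppfia3 every lithium library lies below every vehicle library of its genotype, and the HT fluoxetine females lie below the HT vehicle females; Snap25 is higher in the same groups and Syn2 is not called. These are values before any GC correction, after which the WT lithium change of Ppfia3 is 0.01.

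Both membrane recovery genes fell in each genotype. Dnm1, the neuronal dynamin GTPase, ranged from 34796 (median 39663) to 42811 normalised counts in WT vehicle and from 27600 (median 29659) to 33261 in WT lithium libraries, and from 36895 (median 39261) to 43074 and 25871 (median 29183) to 32329 in HT. No lithium library reached a vehicle library of its genotype, and Dnm1 fell by 0.40 (SE 0.04, adjusted p = 2.13e-13) and 0.43 (SE 0.04, adjusted p = 9.50e-14), or 24.2% and 25.7%. Amph (amphiphysin, which recruits dynamin) fell by 0.10 (adjusted p = 0.0174) and 0.11 (adjusted p = 0.0153), and its HT call was lost without HT lithium female replicate 5 or HT vehicle male replicate 4 (adjusted p 0.0575 to 0.0596). Of the glutamate transporters, Slc17a7 fell by 0.20 (adjusted p = 0.000175) and 0.26 (adjusted p = 3.82e-06). Slc17a6 rose in HT by 0.36 (SE 0.12, adjusted p = 0.00742, 8 of 10 libraries above the vehicle mean) and was -0.09 in WT (adjusted p = 0.549). Its levels were 506 to 844 normalised counts in HT lithium, 381 to 691 in HT vehicle and 374 to 874 in WT vehicle libraries. After removal of the GC and length trend described below, Amph, Slc17a6 and Slc17a7 were called in neither genotype, and Dnm1 fell in both.

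In WT mice 5 members had all lithium libraries below all vehicle libraries (Syn1, Rims1, Bsn, Ppfia3 and Dnm1), where 5.87% of all genes did. In HT mice there were 11 (those 5 with Syt3, Vamp2, Cplx2, Unc13a, Rab3a and Rph3a), where 7.80% of all genes did. In neither genotype did a member lie wholly above, where 6.22% of all genes did in WT and 5.53% in HT. The lithium change did not differ between the genotypes for any member: limma called 0 in the interaction (0% of all genes; 1 member at an unadjusted p under 0.05; 0 by edgeR and by DESeq2). Its smallest p was that of Slc17a6 (0.45, 95% interval 0.12 to 0.77, adjusted p = 0.832), followed by Syt3 (-0.10, 95% interval -0.22 to 0.01) and Cplx2 (-0.09, 95% interval -0.19 to 0.01). These intervals leave room for unequal changes, so the members called in 1 genotype only (Rims2 and Vamp1 in WT, Slc17a6, Syt2 and Syt5 in HT) are not shown to differ between them. Each of these calls except that of Slc17a6 was also lost without 1 library or another (adjusted p up to 0.112 for Rims2, without WT lithium male replicate 2).

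**Figure D3:**
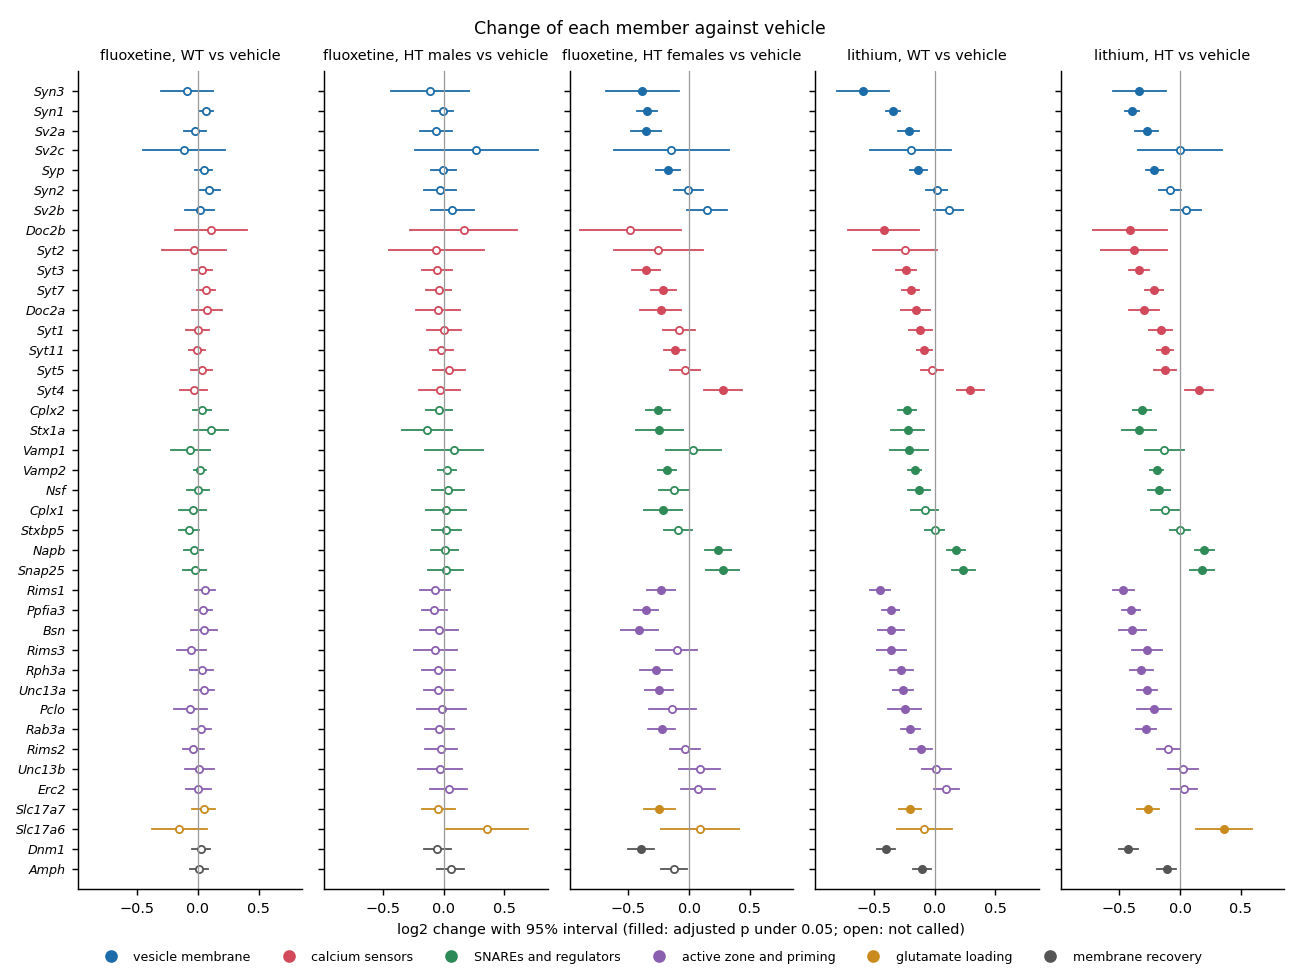
Log2 change of each member against vehicle with its 95% interval, by role, for fluoxetine in WT mice, HT males and HT females and for lithium in WT and HT mice; filled points have a limma adjusted p under 0.05. The first 2 panels hold no filled point, and in the other 3 most filled points lie to the left of 0; removal of the GC and length trend turns the WT lithium values of Bsn, Ppfia3 and Unc13a above 0.

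The size of the lithium change followed the GC content of the transcripts. The members' longest transcripts had a median GC content of 51.6% (38.7% to 60.9%), against 49.4% over all tested genes, and a median length of 4690 bases against 3175. Of the 18 members under 50% GC, 3 rose and 9 fell in WT; of the 22 members at 50% or more, 0 rose and 18 fell. In HT the counts were 4 and 7, and 0 and 20. Over the 40 members, GC content and log2 change had Pearson's r = -0.55 in WT and -0.73 in HT, and over all genes with an annotated transcript r = -0.41 and -0.47; genes within the same libraries share depth and composition, so these values are descriptions. At equal GC class the members were lower than all genes: under 50% GC the median was -0.10 for the members against 0.11 for all genes in WT, and at 50% or more it was -0.23 against -0.15. In HT these medians were -0.05 against 0.14 and -0.29 against -0.16.

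**Figure D4:**
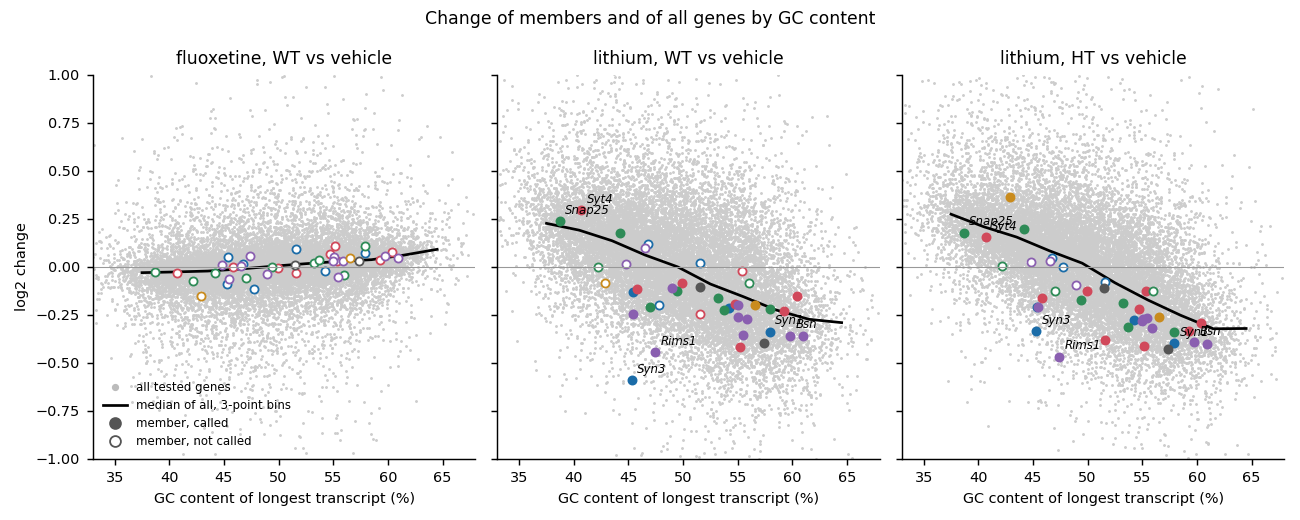
Log2 change against GC content of the longest transcript for all tested genes (grey; those outside ±1 are not drawn) and the 40 members (coloured by role, filled where called), for fluoxetine in WT mice and lithium in WT and HT mice; the black line is the median of all genes in bins of 3 percentage points. Under lithium the line falls with GC content, Snap25 and Syt4 lie at the low-GC end, and Syn3 and Rims1 lie below the line.

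The lithium comparisons were therefore repeated after removing, library by library, the trend of level on GC content and transcript length fitted over all genes. In WT mice 9 members then fell and 2 rose, with a median of -0.03, where 16.6% of all tested genes fell and 18.3% rose. In HT mice 12 members fell and 0 rose, with a median of -0.06, where 16.5% of all genes fell and 12.4% rose. The 9 that fell in both genotypes were Dnm1, Pclo, Rab3a, Rims1, Syn1, Syn3, Syp, Syt1 and Vamp2. The share of all genes that fell in both after removal was not counted. Syn3 (-0.62 in WT, adjusted p = 7.45e-06; -0.40 in HT, adjusted p = 0.00445), Rims1 (-0.37, adjusted p = 1.38e-08; -0.44, adjusted p = 5.93e-10) and Syp (-0.26, adjusted p = 5.26e-06; -0.36, adjusted p = 2.08e-08) kept the largest falls, and that of Syp was larger than before removal. Syn1 was reduced to -0.10 (adjusted p = 0.00448) and -0.15 (adjusted p = 0.000135), and Dnm1 to -0.11 (adjusted p = 0.0123) and -0.14 (adjusted p = 0.00309). Napb stayed called in WT (0.11, adjusted p = 0.027), while Snap25 (0.07 and -0.03) and Syt4 (0.12 and -0.05) were called in neither genotype, and Erc2 was called as higher in WT (0.15, adjusted p = 0.0264). Among the called members, 6 in WT (Bsn, Doc2a, Ppfia3, Syt11, Syt7 and Unc13a) and 6 in HT (Bsn, Rims3, Snap25, Syt4, Syt7 and Unc13a) had the opposite sign after removal, and none of these was then called.

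With the GC and length slope of each library as covariates in place of removal, 3 members rose and 2 fell in WT and 3 rose and 3 fell in HT. These counts are near the shares of all tested genes, of which 5.51% rose and 4.26% fell in WT and 4.87% rose and 4.12% fell in HT. The members' median changed sign (0.14 and 0.10). Rims1 (-0.42, adjusted p = 0.0237, and -0.44, adjusted p = 0.0167) and Vamp2 (-0.24, adjusted p = 0.0238, and -0.25, adjusted p = 0.0152) were called as lower in both genotypes here too. Syn1 was called in HT (-0.22, adjusted p = 0.0356) and not in WT (-0.18, adjusted p = 0.104). Dnm1 (-0.070, adjusted p = 0.672, and -0.086, adjusted p = 0.579), Syp (-0.097, adjusted p = 0.517, and -0.14, adjusted p = 0.303) and, in HT, Cplx2 (-0.064, adjusted p = 0.697) were not called. Syn3 changed sign without a call (0.46, adjusted p = 0.328, and 0.67, adjusted p = 0.115). The members called as higher under these covariates in both genotypes were Vamp1 (0.62, adjusted p = 0.0284, and 0.71, adjusted p = 0.01), Stxbp5 (0.40 and 0.35) and Cplx1 (0.45 and 0.41). Of the members called without covariates, 18 of 30 in WT and 16 of 31 in HT changed sign, among them Bsn (0.31) and Unc13a (0.13) in WT and Syt3 (0.064) in HT. The SE was larger in this fit (0.12 for Rims1 in WT, against 0.04). Both slopes, like the trend removed above, were computed from the same expression values. The length slope was -0.158 to -0.0237 in the 25 lithium and HT fluoxetine female libraries and -0.00457 to 0.088 in the other 34. These ranges do not overlap, so the length slope and these groups go together. With group means in the fit, the effect of the covariates is taken from differences within groups. Whether the sign changes and calls of this fit reflect an effect of lithium on a member was not tested. Quantile normalisation gave 5 rising and 17 falling in WT (27.9% and 24.4% of all genes) and 6 and 20 in HT (27.1% and 23.4%).

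**Figure D5:**
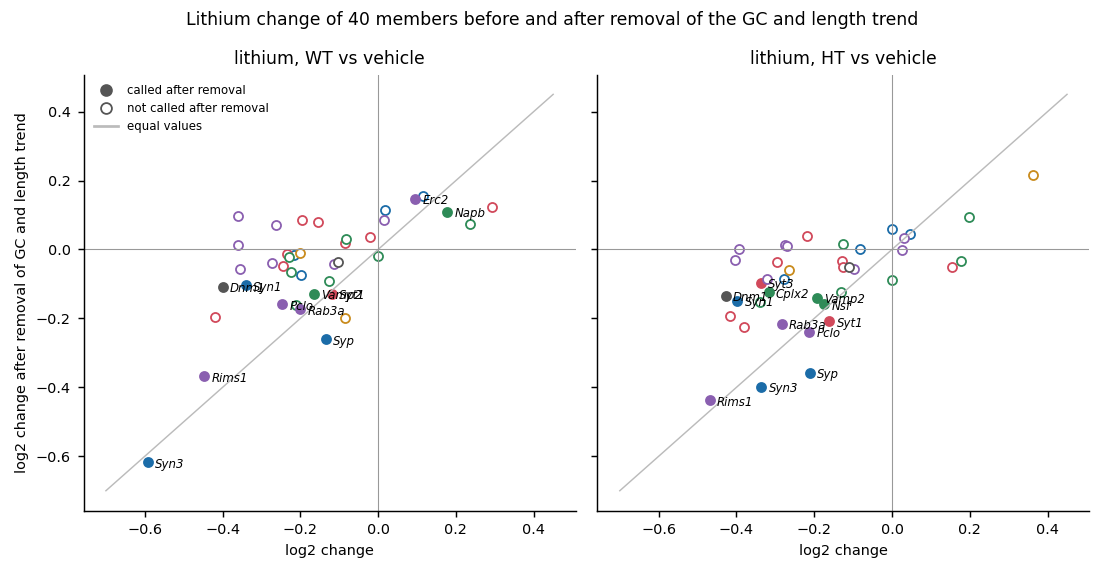
Log2 change of each member under lithium before (horizontal) and after (vertical) removal of the trend on GC content and length, in WT and HT mice; filled and named points are called after removal, and the grey line marks equal values. Most points move up towards 0, whereas Rims1, Syn3 and Syp stay low in both panels; with the slopes as covariates instead, Syn3 lies above 0.

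Related members were then compared within each library, which cancels differences in depth. The log2 ratio of 15 pairs from the same family was tested between lithium and vehicle in each genotype by a two-sided permutation test over libraries, exact in HT and with 100000 resamples in WT. Of these 30 tests, 14 had a Benjamini-Hochberg adjusted p under 0.05 (6 in WT and 8 in HT), and 5 pairs passed in both genotypes. The pairs were formed after the changes above were known, so these tests describe how unequal those changes were. The share of other gene pairs that would pass was not counted, so 14 of 30 is not shown to be particular to these families. Within the synapsins, SV2 proteins and RIMs each ratio follows from the remaining ones, so the tests are not independent. After removal of the GC and length trend, 7 of the 14 passed again in the same direction and 1 passed in the opposite direction. Another 5 passed only after removal: the ratios of Syn1 to Syn3 and of Rims1 to Rims3 in both genotypes, and of Bsn to Pclo in WT. Syn1 fell relative to Syn2 by 0.36 in WT (adjusted p = 0.000162) and by 0.32 in HT (adjusted p = 0.000162), with no overlap between the WT groups. Syn2 rose relative to Syn3 by 0.61 (adjusted p = 0.000162) and 0.25 (adjusted p = 0.00275), Sv2a fell relative to Sv2b by 0.33 (adjusted p = 0.00018) and 0.32 (adjusted p = 0.00201), and Rims1 fell relative to Rims2 by 0.33 (adjusted p = 0.000429) and 0.37 (adjusted p = 0.000162). These ratios kept their sign after removal of the GC and length trend, at -0.22 and -0.15, 0.73 and 0.40, -0.17 and -0.13, and -0.33 and -0.38; that of Sv2a to Sv2b was no longer past the threshold in HT (adjusted p = 0.196). Unc13a fell relative to Unc13b by 0.28 (adjusted p = 0.0002) and 0.30 (adjusted p = 0.000758), but after trend removal this ratio changed by -0.01 and 0.01. The other 4 ratios passed in 1 genotype only. Rims2 rose relative to Rims3 in WT (0.24, adjusted p = 0.0155; 0.01 after trend removal). Bsn fell relative to Pclo in HT (-0.18, adjusted p = 0.000758), where trend removal turned the sign (0.24, adjusted p = 0.00015); after removal the ratio rose in WT as well (0.26, adjusted p = 0.00015; -0.11, adjusted p = 0.0846, before). Cplx1 rose relative to Cplx2 in HT (0.19, adjusted p = 0.0206) and Slc17a6 relative to Slc17a7 in HT (0.63, adjusted p = 0.00395), both short of the threshold after trend removal (adjusted p = 0.138 and 0.167).

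The libraries labelled HT fluoxetine female differed from HT vehicle females in 23 members, of which 20 fell and 3 rose (limma), where 19.5% of all genes fell and 18.9% rose (38.3% called in all). The median change was -0.18, against 0.01 over all tested genes. Syn1 was 17445, 17504, 17364, 17530 and 18024 normalised counts in the 5 fluoxetine libraries and 22544, 23300, 22981, 21273 and 21587 in the 5 vehicle libraries. All 5 fluoxetine values lie below all vehicle values, and the change was -0.35 (SE 0.04, adjusted p = 1.45e-09). Dnm1 was 29791, 29216, 29776, 29660 and 32360 under fluoxetine and 39261, 43074, 39722, 37812 and 38426 under vehicle, again without overlap (-0.39, adjusted p = 1.95e-08). Ppfia3 (-0.35, adjusted p = 7.98e-08), Syt3 (-0.36, adjusted p = 1.46e-06), Sv2a (-0.35, adjusted p = 7.62e-06) and Bsn (-0.41, adjusted p = 1.28e-05) were lower in 5 of 5 fluoxetine libraries. Snap25 was 67914, 68460, 66322, 69448 and 70952 under fluoxetine and 59990, 60668, 60354, 48059 and 54894 under vehicle. It rose by 0.28 (adjusted p = 0.000697) without overlap, and Napb (0.24, adjusted p = 0.00021) and Syt4 (0.28, adjusted p = 0.00391) rose with it. In 16 members all fluoxetine libraries lay below all vehicle libraries (14.3% of all genes), and in Snap25 and Napb they lay above (12.4%).

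By role, the fluoxetine females' falls were 4 of 7 vesicle membrane genes, 4 of 9 calcium sensors, 4 of 9 SNAREs and regulators, 6 of 11 active zone genes, Slc17a7 and Dnm1. After removal of the GC and length trend 4 members fell (Syp, with -0.30 and adjusted p = 0.000598, Syn3, Stxbp5 and Rab3a) and 0 rose, and Ppfia3 turned to 0.031. Of all genes, 7.24% fell and 7.18% rose in that fit. With the slopes as covariates 1 rose and 1 fell (2.29% and 1.79% of all genes), and Bsn (0.26), Syt3 (0.049) and Sv2a (0.017) turned sign. Quantile normalisation gave 5 rising and 15 falling (20.8% and 17.9% of all genes). These females share the HT vehicle females with the HT lithium comparison, so the likeness of the changes in those comparisons is not independent. HT lithium females and HT fluoxetine females were compared directly, and 0 members were called (limma; 0.0559% of all genes; 2 members at an unadjusted p under 0.05; 0 by edgeR and by DESeq2). Rims1 (-0.19, 95% interval -0.31 to -0.08, adjusted p = 0.203) and Rims3 (-0.25, 95% interval -0.42 to -0.08, adjusted p = 0.25) had the smallest p and were lower in 5 of 5 lithium libraries, and Vamp1 came next (-0.20, adjusted p = 0.526).

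The next comparisons rest on the 5 libraries labelled HT fluoxetine female, which stood with the lithium libraries in the first axis of variation, the GC slope and the mitochondrial share. Whether their treatment label holds could not be checked from the data used here and was not tested. The libraries labelled HT and WT fluoxetine female differed in 24 members, 21 lower and 3 higher in HT, where 20.2% of all genes were lower and 19.2% higher (39.5% called in all). Syn1 was 22791, 23588, 24941, 22410 and 23396 normalised counts in the WT fluoxetine females, all above the HT values, with a difference of -0.41 (SE 0.04, adjusted p = 1.61e-11). Dnm1 (-0.44, adjusted p = 1.43e-09), Ppfia3 (-0.39, adjusted p = 6.39e-09), Syt3 (-0.36, adjusted p = 1.31e-06), Bsn (-0.45, adjusted p = 2.30e-06) and Cplx2 (-0.29, adjusted p = 5.45e-06) followed, each lower in 5 of 5 libraries. After removal of the trend 6 were lower and 1 higher (7.91% and 5.95% of all genes), and Ppfia3 was at 0.031. With the slopes as covariates 1 was lower and 2 higher (2.1% and 2.23% of all genes), with Bsn at 0.21 and Syt3 at 0.08. The interaction of genotype and fluoxetine in females called 20 members, 18 of them negative and 2 positive (29.0% of all genes; 15.8% negative and 13.2% positive), led by Syn1 (-0.47, 95% interval -0.58 to -0.35, adjusted p = 2.13e-08). After removal of the trend 2 of them, Syp (-0.45, adjusted p = 0.000753) and Rims1 (-0.32, adjusted p = 0.0306), were called, where 3.98% of all genes were negative and 1.87% positive. With the slopes as covariates 1 was positive and 0 negative (1.07% and 1.21% of all genes). Within HT mice, the fluoxetine change of females was lower than that of males in 8 members and higher in 1 (15.2% of all genes, with 8.59% lower and 6.59% higher), again led by Syn1 (-0.34, adjusted p = 7.90e-05). Quantile normalisation gave 6 lower and 3 higher (7.24% and 8.36% of all genes), and DESeq2 8 and 3 (12.1% and 8.1%). After removal of the trend 0 were called by limma (0.693% of all genes lower and 0.52% higher, and 3 members at an unadjusted p under 0.05). Vehicle females and males did not differ in any member (limma; 0.0838% of all genes; 6 at an unadjusted p under 0.05; 0 by edgeR and by DESeq2). Syn2 (-0.13, adjusted p = 0.169), Slc17a6 (0.33, adjusted p = 0.172) and Stx1a (-0.19, adjusted p = 0.182) had the smallest p in that comparison. Without HT vehicle male replicate 3, 3 members (Syn2, Sv2c and Stx1a) were called between the sexes.

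Genes of the same pathway outside the 40 members were counted from 4 lists. Under lithium 26.3% of all genes fell and 26.6% rose in WT, and 24.9% fell and 25.7% rose in HT. Of 32 priming and fusion partners, 14 fell and 4 rose in WT under lithium, and 14 fell and 5 rose in HT. Ppfia4, another liprin, fell by 0.47 and 0.37 (adjusted p = 4.42e-15 and 1.91e-11). Of 13 vesicle membrane partners, 7 fell and 3 rose in WT, and 8 fell and 4 rose in HT; Scamp1, a secretory carrier membrane protein, rose by 0.18 and 0.19 (adjusted p = 4.85e-08 and 1.53e-08). Of 22 endocytosis partners, 9 fell and 5 rose in WT, and 11 fell and 3 rose in HT. Ap2a2 and Ap2b1, subunits of the AP-2 clathrin adaptor, fell by 0.38 and 0.24 in WT (adjusted p = 1.05e-16 and 7.92e-13). Of 15 transmitter loading genes, 5 fell and 5 rose in WT, and 6 fell and 5 rose in HT; the proton pump subunits Atp6v0a1 and Atp6v1d went opposite ways in WT (-0.26, adjusted p = 7.84e-11, and 0.32, adjusted p = 7.01e-13). With the trend on GC content and length removed, the priming and fusion partners numbered 6 falling and 2 rising in WT and 7 and 2 in HT, the vesicle membrane partners 2 and 1, and 3 and 1, the endocytosis partners 7 and 5, and 9 and 2, and the transmitter loading genes 4 and 4, and 6 and 1. In that fit 16.6% of all genes fell and 18.3% rose in WT, and 16.5% fell and 12.4% rose in HT. With the slopes as covariates, 2 priming and fusion partners fell and 5 rose in WT and 2 fell and 3 rose in HT, 4 and 2 endocytosis partners rose with 0 falling, and 0 genes of the other lists were called. Of all genes, 4.26% fell and 5.51% rose in WT in that fit, and 4.12% fell and 4.87% rose in HT. Under these covariates Ppfia4 was called in WT (-0.38, adjusted p = 0.0232) but missed the threshold for HT mice (-0.27, adjusted p = 0.106). Ap2a2 (-0.12, adjusted p = 0.277), Ap2b1 (-0.087, adjusted p = 0.412) and Scamp1 (0.037, adjusted p = 0.76) were not called in WT, where Atp6v0a1 turned sign (0.041). After trend removal Ppfia4 kept its WT call (-0.12, adjusted p = 0.00667), whereas its HT change was -0.035 (adjusted p = 0.515). Atp6v1d likewise kept its WT call (0.17, adjusted p = 0.000701) but not its HT rise (0.056, adjusted p = 0.349). Ap2a2, Ap2b1, Atp6v0a1 and Scamp1 stayed called in both genotypes after removal. Quantile normalisation gave 3 falling and 7 rising transmitter loading genes, 4 and 4 vesicle membrane partners and 9 and 8 endocytosis partners in WT (24.4% of all genes fell and 27.9% rose). In WT mice under fluoxetine 1 of the 22 endocytosis partners was called, the clathrin light chain Clta (0.20, adjusted p = 0.0231), and 0 genes of the other lists. Of all tested genes 1.02% were called in that comparison.

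Pan-neuronal and excitatory markers were lower under lithium along with the members, and the GABAergic list was mixed. Of 6 pan-neuronal markers 5 fell and 0 rose in each genotype, and their summed level was 79463 to 92747 normalised counts in WT lithium against 85105 to 102026 in WT vehicle libraries; 26.3% of all genes fell in WT and 24.9% in HT. Of 6 excitatory cortical markers, a list that holds the member Slc17a7, 5 fell and 1 rose in WT and 5 fell and 0 rose in HT, with sums of 131381 to 162271 against 136571 to 200084 in WT. In HT mice the pan-neuronal sums were 76095 to 89902 under lithium and 85121 to 99274 under vehicle, and the excitatory sums 122066 to 149564 and 153152 to 193970. In HT fluoxetine females 2 pan-neuronal markers fell and 0 rose (79681 to 89261), and 4 excitatory markers fell and 1 rose (135233 to 149023). For the 6 GABAergic markers the counts were 1 falling and 2 rising in WT, with sums of 18870 to 25258 against 18321 to 27724. The 6 astrocyte markers summed to 46638 to 59108 under lithium and 48115 to 64877 under vehicle in WT, with 3 falling. The 6 oligodendrocyte markers ranged from 41236 to 175586 and from 39478 to 221714, with 1 falling. Of the 6 microglial markers 2 fell and 2 rose, and of the 6 endothelial markers 3 fell and 2 rose, in each genotype. With the GC and length trend removed 2 pan-neuronal markers fell in each genotype, and 0 excitatory markers fell in WT and 3 in HT. Of all genes, 16.6% fell in WT and 16.5% in HT in that fit. The part of these marker levels in the change of the members was not tested.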

How the data were processed

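The deposited table holds, as a signal per gene and library, the authors' gene counts divided by 1 size factor per library; whole reads were recovered for 100% of values between 1 and 1000 reads (within 0.01 read). Per the submitters' processing notes, Salmon 0.11.2, R 3.6.0, DESeq2 1.19.11 and GRCm38 were used, with their roles not given. Per the labels, libraries were stranded mRNA libraries (TruSeq). Genes with a value of 10 or more in at least 4 libraries (17891 of 18088) were fitted with limma 3.58.1 (limma-trend, R 4.3.3) on log2(value + 1) with 12 group means and 47 residual degrees of freedom. Comparisons over both sexes average the sexes. All p-values are two-sided and Benjamini-Hochberg adjusted over all genes within a comparison (threshold 0.05), and SE and 95% intervals come from the same fit. Fold changes on this scale understate changes of low genes.

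GC content and length are those of the longest GENCODE transcript on GRCm38. Alternatives were edgeR 4.0.16 and DESeq2 1.42.0 on recovered reads, other filters and added constants, quantile normalisation, removal of the GC and length trend (splines with 5 degrees of freedom), slopes as covariates, only the groups compared, a replicate block, and leaving out each library. Leaving out the HT fluoxetine females, and the pair ratios, were added after seeing the data. Values were given for up to 6 called members with the smallest p per comparison, or for 3 where fewer than 3 were called, and for partners among the 2 of each list with the smallest p; some of these are not reported here. The members and lists were chosen with earlier results of these data known. Scripts were tested on simulated data. Nothing in the labels says which libraries came from separate litters, so p-values measure only the spread between these libraries. Counting error is small at these depths; the number of libraries limits the precision.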

Additional observations from a re-analysis of the deposited data

Results flagged for a closer look

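In 10 members, the 12 groups were screened for a library far from the others of its group (120 groups, of which chance flags about 1 in 20), and 11 were found. In HT vehicle males, 1 library had 23210 normalised counts of Bsn with the nearest at 19580. In WT fluoxetine females, 1 library was low in Cplx2 (32785, nearest 33428), 1 low in Ppfia3 (6346, nearest 6788) and 1 high in Vamp2 (36743, nearest 34091). In HT fluoxetine females, 1 library was high in Dnm1 (32360, nearest 29791), in Syn1 (18024, nearest 17530) and in Syt3 (1192, nearest 1066). In WT vehicle males 1 library was low in Sv2a (12571, nearest 14164), and in WT fluoxetine males 1 was high in Syn1 (24489, nearest 22340). Unc13a had 1 high library in HT vehicle females (19106, nearest 16465) and 1 low library in WT lithium males (12267, nearest 14170).

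Of all tested genes, 29.0% were called by the limma interaction of genotype and fluoxetine in females (log2 values, HT minus WT). The fluoxetine change of females differed between HT and WT mice in 20 members by this interaction. The negative ones were Bsn (-0.55), Dnm1 (-0.48), Syn1 (-0.47), Ppfia3 (-0.45), Stx1a (-0.43), Syt3 (-0.40), Rph3a (-0.39), Cplx2 (-0.37), Unc13a (-0.37), Slc17a7 (-0.36), Sv2a (-0.36), Doc2a (-0.36), Rims1 (-0.33), Syt7 (-0.31), Rab3a (-0.31), Syp (-0.27), Vamp2 (-0.23) and Syt11 (-0.16). Snap25 (0.24) and Napb (0.23) were positive. Adjusted p ranged from 2.13e-08 for Syn1 to 0.0468 for Snap25, and the calls of Syt11 and Snap25 were each lost in 13 of 59 leave-outs, those of Doc2a in 2 and Stx1a in 1. After removal of the GC and length trend 2 of the 20 were called, where 3.98% of all genes were negative and 1.87% positive. With the slopes as covariates 1 member was called, where 1.21% of all genes were negative and 1.07% positive.

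In HT mice the fluoxetine change differed between females and males in 9 members (female minus male), where 15.2% of all genes were called. It was negative for Bsn (-0.37), Dnm1 (-0.34), Syn1 (-0.34), Syt3 (-0.30), Sv2a (-0.29), Ppfia3 (-0.28), Cplx2 (-0.22) and Vamp2 (-0.21), and positive for Napb (0.23), with adjusted p from 7.90e-05 for Syn1 to 0.0319 for Napb. Both differences rest on the 5 libraries of HT fluoxetine females, and the calls of Cplx2, Napb and Sv2a were lost in 7, 6 and 2 leave-outs. After removal of the GC and length trend 0 members were called between the sexes, where 0.693% of all genes were negative and 0.52% positive. Bsn and Ppfia3 changed sign in that fit. With the slopes as covariates 0 members were called as well.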

How the results depend on the processing

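Counts of called members were within 1.5 times the reported ones for every comparison with other filters, added constants, quantile normalisation, edgeR, DESeq2 and only the groups compared. With the GC and length trend removed they became 7 (HT against WT fluoxetine females), 4 (fluoxetine in HT females), 11 and 12 (lithium in WT and HT), 2 (genotype by fluoxetine in females) and 0 (sex by fluoxetine in HT). With the slopes as covariates they became 1 (HT against WT fluoxetine males), 3, 2, 5, 6, 1 and 0 in the same order. In these comparisons, apart from HT against WT fluoxetine males, smaller shares of all genes were called in both of these fits as well. Among the members with the smallest p in each comparison and the ratios, signs turned after trend removal for Ppfia3 (0.031 in HT against WT fluoxetine females, 0.031 for fluoxetine in HT females, 0.013 for lithium in WT and 0.080 for sex by fluoxetine), Bsn (0.10 for lithium in WT and 0.022 for sex by fluoxetine), Unc13a (0.072 for lithium in WT), and the ratios of Unc13a to Unc13b (0.013) and Bsn to Pclo (0.24) in HT. With covariates they turned for Bsn (0.21, 0.26, 0.31 for lithium in WT, 0.21 and 0.23), Syt3 (0.080, 0.049, 0.064 for lithium in HT, 0.082 and 0.048), Sv2a (0.017, fluoxetine in HT females) and Unc13a (0.13, lithium in WT), in that order of comparisons. Over all called members, trend removal turned 6 of 30 signs for lithium in WT and 6 of 31 in HT, and the covariates turned 18 and 16, of which 1 (Vamp1 in WT) was called. The cause was not tested. The length slope separates the lithium and HT fluoxetine female libraries from all others, and the covariate fit takes the effect of the slopes from differences within groups.

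Leaving out each library gave 21 to 25 and 20 to 25 members for HT against WT and for fluoxetine in HT fluoxetine females, 27 to 31 for lithium in WT, 29 to 33 in HT, 17 to 21 and 7 to 12 for the interactions in the order above, 0 to 1 for HT against WT fluoxetine males, 0 to 3 between vehicle sexes, and 0 elsewhere. Replicate numbers gave little sign of pairing: the mean correlation of residuals was 0.01 over 319 same-numbered pairs and -0.003 over other pairs. Of the 59 libraries, 18 correlated best with a library of their own number, and the number from chance was not counted. These numbers are those of the titles, where HT vehicle male replicates 3 and 4 have library numbers 4 and 5. A replicate block left lithium in WT at 30 called members and no count moved.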

Other observations

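Summed levels of the 6 striatal markers reached 16989 normalised counts in 1 HT vehicle library (median 3906), 16310 in HT fluoxetine males (median 3818), 13447 in WT vehicle (median 3579) and 11841 in WT lithium libraries (median 3919), and those of the 6 olfactory bulb markers 13431 in 1 HT lithium library (median 2021) and 12113 in 1 WT vehicle library (median 1385). In WT lithium mice the olfactory bulb sums were 927 to 3073.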
